A study of Mus musculus with 4 samples.

Results

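The genes described here encode the enzymes of cholesterol synthesis, the sterol regulatory element-binding proteins (SREBPs) that control them, and a few SREBP-regulated genes of sterol transport and fatty acid synthesis. They were taken by symbol from a fixed list of 30 names, of which 29 had a row among the 29871 rows kept from the deposited table, 1 per symbol, and 1, SC5DL, is an older name of Sc5d (SC5D). The table writes symbols in capitals, such as SREBF1, SREBF2 and FASN. The samples were adenomas of the mouse small intestine, with 2 libraries labelled PAF KO; APC Min/+ and 2 libraries labelled APC Min/+, here called PAF KO and Apc Min. Both groups thus carried the Min allele, a truncating mutation in 1 copy of the tumour suppressor Apc, and the Apc Min libraries, though called wild type in the labels, were wild type only for PAF. PAF is understood here to be the product of Pclaf, a protein that binds the replication clamp PCNA. The sources used here do not give the age or number of the mice, how many adenomas went into a library or which part of the gene was altered.

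Cholesterol is built in the cytosol and endoplasmic reticulum from acetyl-CoA. The mevalonate pathway makes isoprenoid units, farnesyl diphosphate branches to squalene or to prenyl lipids, and squalene is closed to lanosterol and trimmed to cholesterol. SREBPs are made as membrane proteins: Scap carries them to the Golgi for cleavage when sterols are low, and Insig proteins hold Scap back when sterols are plentiful. The SREBP encoded by Srebf2 acts mainly on cholesterol genes and that of Srebf1 mainly on fatty acid genes. The small intestine both synthesizes and absorbs cholesterol.

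Levels are in FPKM, fragments scaled for transcript length and for sequencing depth, so levels of different genes can be set side by side per unit of length. Summed FPKM was 543952 and 609635 in the PAF KO libraries, against 528147 and 533824 in the Apc Min libraries. Depth, estimated from the lowest values of single-transcript genes, was about 15400000 and 23900000 fragments in PAF KO and 13200000 and 17600000 in Apc Min. These depths are rough, since the most common low value was shared by only 14 to 22 genes in a library. The Pclaf row (2810417H13Rik) read 4.13 and 11.4 FPKM in PAF KO, against 17.9 and 17.8 in Apc Min. With no word on where the gene was altered, the reads left in that row neither check nor contradict the genotype. The PAF KO libraries differed from each other far more than the Apc Min libraries did, by a median of 0.488 against 0.0882 on the log2 scale over all tested rows. PAF KO library 2 stood apart on the first principal component (64.3% of the variance). That library also held Xist at 46.4 FPKM and the Y-linked Eif2s3y at 0, whereas the other 3 libraries held at most 0.00861 and at least 26 FPKM, so the PAF KO libraries came from animals of different sex. Epithelial markers such as Epcam (945 and 1342 FPKM in PAF KO, 1006 and 946 in Apc Min) were abundant in every library. The 10 absorptive enterocyte markers summed to 11593 and 1373 FPKM in PAF KO, against 4622 and 5098 in Apc Min. A few abundant genes carry that sum. Rbp2, Apoa4 and others, 7 of the 10 markers, were above both Apc Min libraries in library 1 and below both in library 2. By a looser rule, over the Apc Min mean in library 1 and under it in library 2, the markers again numbered 7 of 10. Of all 13716 tested rows, 1471 met that looser rule. Sis, Fabp2 and Anpep were lower in both PAF KO libraries, as were 30.2% of all tested rows. Smooth muscle markers summed to 286 and 827 FPKM in PAF KO and to 241 and 241 in Apc Min, with 7 of 8 higher in both PAF KO libraries, where 21.5% of all tested rows were. Leukocyte markers summed to 83.9 and 208 FPKM in PAF KO and to 86.6 and 81.7 in Apc Min, largely through Lyz2 (56.1 and 157 FPKM in PAF KO, 51.5 and 44.5 in Apc Min). Of 7 leukocyte markers, 3 were higher and 2, Cd3e and Cd68, lower in both PAF KO libraries. The shares of all tested rows were 21.5% higher and 30.2% lower in both. Each marker of these lists read above 0 in all 4 libraries, and the part of these differences in the values below was not tested.

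Most members were expressed at moderate levels and lay lower in PAF KO library 1, while PAF KO library 2 split them. The fatty acid enzymes Fasn and Scd1, the regulators Srebf1, Srebf2 and Scap and the sterol reductase Tm7sf2 were the members with the largest deficits shared by both PAF KO libraries. Of 28 members with a mean of at least 1 FPKM, 0 were called by limma on log2(FPKM + 1) (Benjamini-Hochberg adjusted p under 0.05 over 13716 rows; lowest adjusted p = 0.243), where 0.0729% of all tested rows were called. At an unadjusted p under 0.05 there were 6 members lower in PAF KO, against 9.76% of all rows, and 1 higher, against 3.44%. The median log2 fold change was -0.20 over the members and 0.00 over all tested rows. Because RNA was taken from whole adenomas, fewer cells of a type and less RNA per cell cannot be told apart.

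Both PAF KO libraries lay below both Apc Min libraries for 13 of the 28 members, against a background of 30.2%, and above both for 3 members, against 21.5%. PAF KO library 1 alone lay below both Apc Min libraries for 22 members, against 56.2% of all rows, and above both for 3, against 31.2%. PAF KO library 2 lay below both for 13 members, against 41.7%, and above both for 14, against 51.3%. The median difference from the Apc Min mean was -0.27 for members in library 1 and 0.05 in library 2, beside -0.11 and 0.09 over all tested rows. The library 1 value was -0.16 under quantile scaling and -0.14 after median centring. For 11 members library 1 was under and library 2 over the Apc Min mean, against 28.4% of all rows. The opposite split occurred for 0 members, and for 1471 of the 13716 tested rows. Summed over the 29 rows, the members held 988 and 1232 FPKM in PAF KO, against 1272 and 1242 in Apc Min. The PAF KO libraries differed from each other more than the Apc Min libraries did for 25 of 28 members, against 86.5% of all tested rows.

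**Figure D1:**
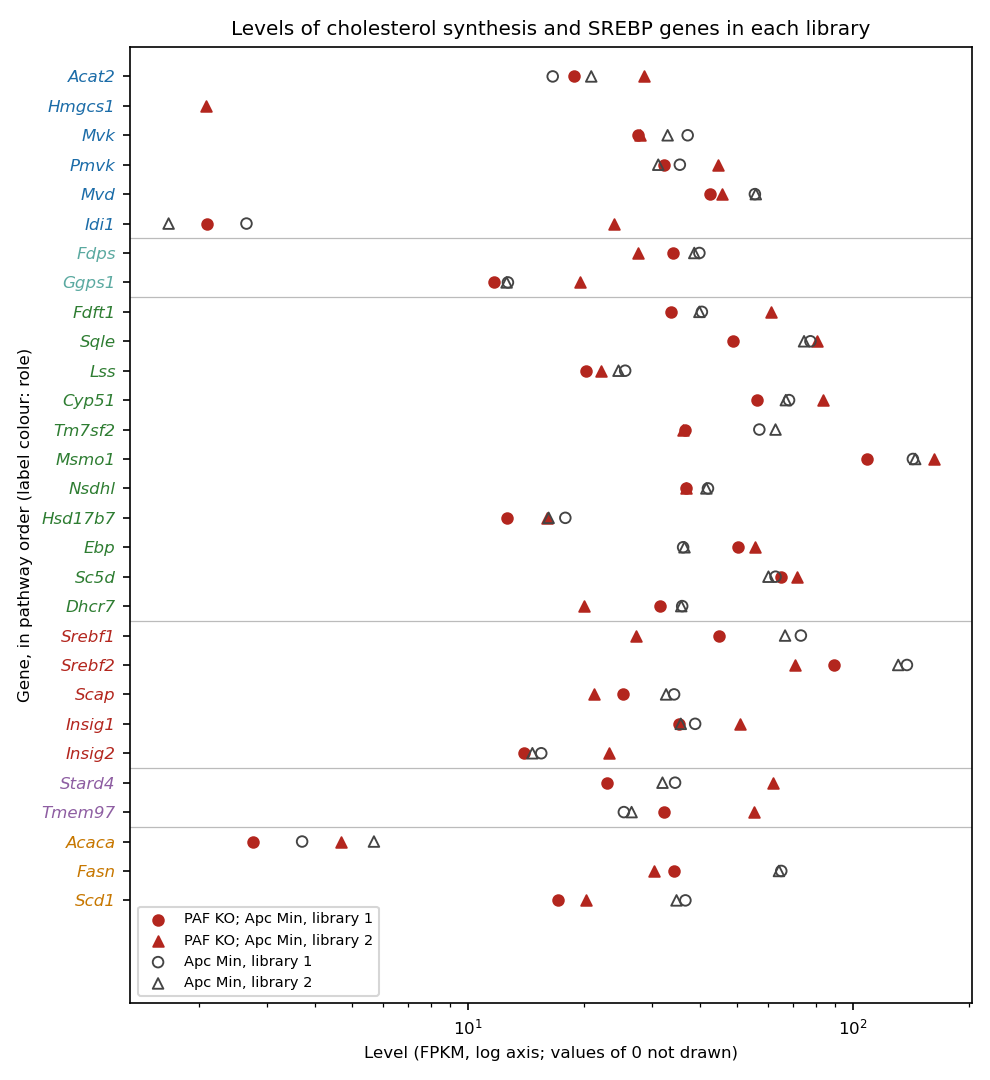
FPKM (log axis) of each member in each library, PAF KO filled and Apc Min open, circles for library 1 and triangles for library 2, in pathway order with the role as label colour. Msmo1 and Srebf2 are the most abundant members in Apc Min, and the triangles and circles of PAF KO are often far apart where those of Apc Min coincide.

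Of the genes of the SREBP pathway itself, those of the transcription factors and their escort read lower in both PAF KO libraries. Srebf2 read 89.0 and 70.6 FPKM in PAF KO, against 138 and 131 in Apc Min. Its PAF KO mean was 59.3% of the Apc Min mean, with a log2 fold change of -0.76 (SE 0.200, n = 2 per group; limma adjusted p = 0.318). Srebf1 read 44.9 and 27.3 FPKM in PAF KO, against 73.2 and 66.6 in Apc Min, with a log2 fold change of -0.97 (SE 0.299; limma adjusted p = 0.340). The groups did not overlap for either gene, and library 2 was the lowest of the 4 libraries for both. Set against Apc Min singly, Srebf1 differed by -0.62 in PAF KO library 1 and by -1.33 in library 2. Srebf1 overlaps Rai1 on the opposite strand, and Rai1 had a like pattern at 8.94 and 4.54 FPKM in PAF KO, against 15.1 and 13.4 in Apc Min. The part of shared reads in the Srebf1 values was not tested. The Srebf1 to Srebf2 ratio within a library was 0.505 and 0.387 in PAF KO and 0.531 and 0.507 in Apc Min. A gene-level value does not separate the long and short Srebf1 transcripts, which start at different promoters.

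Scap, the escort protein, read 25.3 and 21.2 FPKM in PAF KO, against 34.3 and 32.7 in Apc Min, again without overlap (log2 fold change -0.52, SE 0.174; limma adjusted p = 0.362). The genes of the retention proteins lay on both sides of Apc Min. Insig1, itself a classical SREBP target, read 35.4 and 51.0 FPKM in PAF KO and 38.9 and 35.7 in Apc Min. Insig2 read 14.0 and 23.3 FPKM in PAF KO and 15.5 and 14.7 in Apc Min. For both Insig genes PAF KO library 1 was just under and library 2 well over the Apc Min values, and their log2 fold changes of 0.18 (SE 0.242) and 0.24 (SE 0.294) were smaller than their errors. The Insig1 to Srebf2 ratio was 0.398 and 0.723 in PAF KO, against 0.282 and 0.272 in Apc Min, and the groups did not overlap. Insig1 itself overlapped, and in library 1 the higher ratio comes only from the lower Srebf2 value. The Insig1 to Insig2 ratio was 2.53 and 2.19 in PAF KO and 2.51 and 2.42 in Apc Min.

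The promoter letters of 5 members are shown because they include the control gene Srebf2, the lipogenic gene of smallest p (Fasn), the sterol enzymes of smallest p that were lower (Tm7sf2) and higher (Ebp) in both PAF KO libraries, and Hmgcs1, which carries a full sterol response element. The sequences are the 250 bases before the annotated start in RefSeq on GRCm38.p6, 5′ to 3′ on the gene's strand. Capitals mark the sterol response element (TCACNCCA on either strand, or the longer TCACNCCAC in Hmgcs1) and the CCAAT box (CCAAT or ATTGG), the site of the SREBP partner NF-Y.
Srebf2 (chr15:82147019-82147268, plus strand): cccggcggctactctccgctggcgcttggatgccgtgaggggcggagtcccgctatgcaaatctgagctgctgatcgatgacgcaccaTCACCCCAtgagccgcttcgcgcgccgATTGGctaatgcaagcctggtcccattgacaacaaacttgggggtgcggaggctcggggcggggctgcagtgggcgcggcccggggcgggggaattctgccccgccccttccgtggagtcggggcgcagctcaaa
Fasn (chr11:120824548-120824797, minus strand): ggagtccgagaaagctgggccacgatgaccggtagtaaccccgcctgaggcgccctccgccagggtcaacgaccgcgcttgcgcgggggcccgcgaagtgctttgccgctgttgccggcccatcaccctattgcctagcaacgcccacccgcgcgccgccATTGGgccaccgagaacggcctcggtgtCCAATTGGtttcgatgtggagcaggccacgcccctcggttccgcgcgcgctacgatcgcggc
Tm7sf2 (chr19:6067851-6068100, minus strand): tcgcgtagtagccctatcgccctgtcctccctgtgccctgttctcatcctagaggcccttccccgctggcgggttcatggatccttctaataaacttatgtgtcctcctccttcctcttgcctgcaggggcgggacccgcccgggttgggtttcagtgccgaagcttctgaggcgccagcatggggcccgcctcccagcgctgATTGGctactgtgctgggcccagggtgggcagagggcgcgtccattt
Ebp (chrX:8193513-8193762, minus strand): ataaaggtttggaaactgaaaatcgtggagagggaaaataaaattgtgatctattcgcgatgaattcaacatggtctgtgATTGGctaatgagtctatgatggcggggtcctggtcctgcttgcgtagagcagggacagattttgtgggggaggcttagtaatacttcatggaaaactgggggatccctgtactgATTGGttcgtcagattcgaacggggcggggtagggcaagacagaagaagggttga
Hmgcs1 (chr13:119690101-119690350, plus strand): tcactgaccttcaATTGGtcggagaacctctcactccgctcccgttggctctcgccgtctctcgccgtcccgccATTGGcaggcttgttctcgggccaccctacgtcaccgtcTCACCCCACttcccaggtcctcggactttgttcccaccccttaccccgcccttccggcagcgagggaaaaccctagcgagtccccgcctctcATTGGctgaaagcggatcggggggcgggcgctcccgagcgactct

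RefSeq windows were found for 24 members. Fdps, Fdft1, Sqle, Scd1 and Stard4 had none, so their promoters were not searched. A CCAAT box stood in the windows of 21 of them, against 39.5% of 17492 protein-coding genes, and a GC box (GGGCGG, either strand), the site of Sp1, in 20, against 45.8%. The E-box CACGTG was present in 5 members, against 7.61% of genes. The sterol response element TCACNCCAC was found in 1 member, Hmgcs1, against 1.2% of genes. Its shorter form TCACNCCA, searched after the windows had been seen, was found in 3 members, Hmgcs1, Msmo1 and Srebf2, against 4.03%. In Srebf2 it begins 162 bases before the start and in Hmgcs1 137 bases before it. No different motifs overlapped in these windows, apart from the shorter element within the longer one. These are matches of letters in a short window, and genes with more annotated starts had more windows searched. Genes with the CCAAT box included Fasn, Tm7sf2 and Srebf2, lower in both PAF KO libraries, and Ebp and Tmem97, higher in both.

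Fatty acid synthesis held the member of smallest p. Fasn, the fatty acid synthase, read 34.3 and 30.4 FPKM in PAF KO, against 65.1 and 64.2 in Apc Min. The PAF KO mean was 50.1% of the Apc Min mean (32.3 ± 2.81 against 64.6 ± 0.621 FPKM, SD, n = 2 each), a log2 fold change of -0.98 (SE 0.162; limma adjusted p = 0.243). Scd1, which introduces the double bond of oleate, read 17.1 and 20.3 FPKM in PAF KO, against 36.7 and 34.8 in Apc Min (log2 fold change -0.91, SE 0.173; limma adjusted p = 0.257). For both genes the 2 PAF KO libraries lay close together and well below Apc Min. Acaca, the carboxylase that supplies malonyl-CoA, was listed at only 2.76 and 4.68 FPKM in PAF KO and 3.71 and 5.70 in Apc Min, and its groups overlapped. The annotation holds a processed pseudogene, Gm5182, that matches the Acaca transcript at 99.2% over 6118 bases, so the Acaca level is uncertain. Adipocytes also express lipogenic genes, and 5 of 8 adipocyte markers, among them Adipoq and Plin1, were at 0 in PAF KO library 1 and both Apc Min libraries. In PAF KO library 2 these 5 all read above 0, from Lep at 0.0244 FPKM to Cfd at 3.96, with Adipoq at 0.419. The adipocyte list summed to 76.2 and 88.6 FPKM in PAF KO and to 50.1 and 47.6 in Apc Min, mostly Cidec and Fabp4. These genes differed in pattern. Cidec read 47.0 and 8.86 FPKM in PAF KO, against 21.0 and 20.6 in Apc Min. Fabp4 read 28.4 and 71.4 FPKM in PAF KO, against 29.0 and 26.5 in Apc Min. The part of adipocytes in the lipogenic values was not tested.

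**Figure D2:**
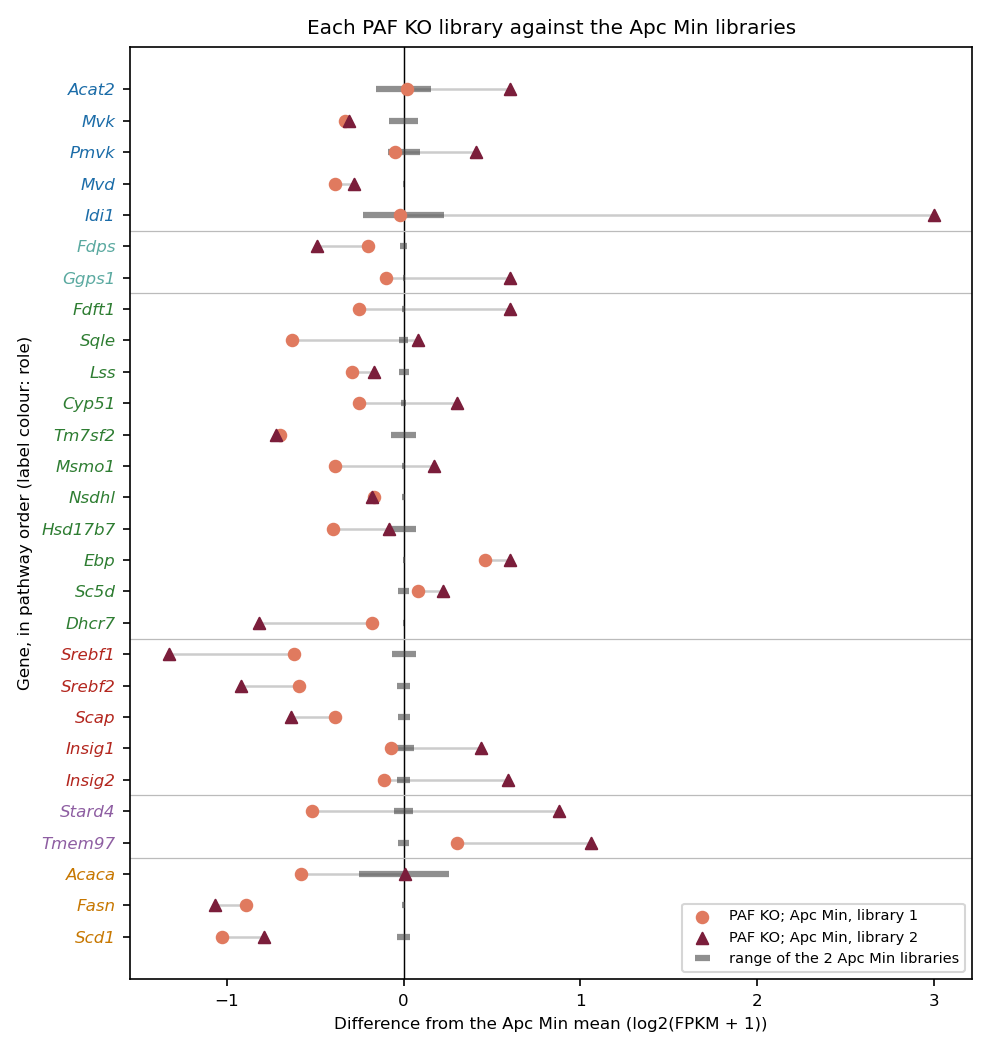
Difference of each PAF KO library from the Apc Min mean in log2(FPKM + 1), circles for library 1 and triangles for library 2, for the 28 tested members in pathway order, with grey bars for the range of the 2 Apc Min libraries. Fasn, Scd1, Srebf1, Srebf2, Scap and Tm7sf2 have both symbols left of the bar, Ebp and Tmem97 have both to the right, Sc5d lies right by a small amount, and for Sqle, Fdft1, Cyp51, Msmo1 and Stard4 the symbols stand on opposite sides.

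The first steps, from acetyl-CoA to isopentenyl diphosphate, were not uniformly lower or higher. The kinase Mvk read 27.6 and 28.0 FPKM in PAF KO, against 37.2 and 33.0 in Apc Min (log2 fold change -0.32, SE 0.160; limma adjusted p = 0.456). The decarboxylase Mvd read 42.4 and 45.7 FPKM in PAF KO, against 55.6 and 55.9 in Apc Min (log2 fold change -0.33, SE 0.155; limma adjusted p = 0.446). Both lay lower in each PAF KO library by a similar amount. Pmvk, the second kinase of the pathway, had values that overlapped, at 32.2 and 44.5 FPKM in PAF KO and 35.5 and 31.2 in Apc Min. Acat2, the thiolase that joins acetyl-CoA units, read 18.9 and 28.7 FPKM in PAF KO and 16.6 and 20.9 in Apc Min, also with overlap. The Acat2 transcript matches its neighbour Acat3 at 97.7% over 1477 bases, and Acat3 was listed at 0.523 and 0.439 FPKM in PAF KO and 0.319 and 0.391 in Apc Min, so reads could have been divided between the genes. Acat2 also matches Tcp1 at 98.7% over 445 bases, and Tcp1 read 124 and 211 FPKM in PAF KO, against 129 and 120 in Apc Min.

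The synthase Hmgcs1 and the isomerase Idi1 were listed at levels far under those of their pathway neighbours, except for Idi1 in PAF KO library 2. Hmgcs1 was listed at 0 FPKM in PAF KO library 1 and 2.09 in library 2, and at 0 in both Apc Min libraries. Idi1 read 2.10 and 24.0 FPKM in PAF KO, against 2.66 and 1.67 in Apc Min, so its log2 fold change of 1.49 (SE 1.12) rests on PAF KO library 2. Gapdh, used by every cell, was likewise listed at only 0.832 and 0.963 FPKM in PAF KO and 1.33 and 1.60 in Apc Min, so a low listing in this table is not read as low expression. Idi1 has a pseudogene copy, Gm13502, identical over 684 bases, and Hmgcs1 overlaps an antisense gene, Gm48342. Hmgcs1 did not pass the level filter, while Idi1 did and is among the members counted above.

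At the branch point, Fdps, which makes farnesyl diphosphate, read 34.1 and 27.7 FPKM in PAF KO, against 39.9 and 38.7 in Apc Min, with no overlap (log2 fold change -0.34, SE 0.182; limma adjusted p = 0.473). Ggps1, which extends it to geranylgeranyl diphosphate for protein prenylation, read 11.7 and 19.6 FPKM in PAF KO and 12.7 and 12.6 in Apc Min. Its PAF KO libraries lay on either side of Apc Min. Ggps1 matches a pseudogene, Gm5630, at 97.2% over 903 bases and overlaps Arid4b on the opposite strand, which was split likewise at 7.26 and 17.4 FPKM in PAF KO, against 9.17 and 9.4 in Apc Min. Fdft1, the squalene synthase that commits farnesyl units to sterols, showed the same split at 33.6 and 61.4 FPKM in PAF KO, against 40.5 and 39.9 in Apc Min. The Fdft1 transcript shares 774 bases with the overlapping gene Ctsb, a protease that read 156 and 183 FPKM in PAF KO and 138 and 140 in Apc Min, and the sources used here do not say whether counting used strand.

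Sqle, the squalene epoxidase and a rate-limiting step, read 48.8 and 80.5 FPKM in PAF KO, against 77.5 and 74.6 in Apc Min. Library 1 thus lay 0.63 below the Apc Min mean on the log2 scale and library 2 lay 0.08 above it, and the combined log2 fold change of -0.27 (SE 0.300) was within its error. Lss, which closes the sterol rings, read 20.3 and 22.2 FPKM in PAF KO, against 25.6 and 24.6 in Apc Min, lower in both by a small amount (log2 fold change -0.23, SE 0.155; limma adjusted p = 0.546). Cyp51, the lanosterol demethylase, read 56.4 and 83.6 FPKM in PAF KO and 68.2 and 66.9 in Apc Min. It overlaps Akap9 on the opposite strand, which read 9.57 and 15.9 FPKM in PAF KO and 11.9 and 11.3 in Apc Min. Msmo1, a methyl sterol oxidase listed under its older name SC4MOL and the most abundant member in Apc Min, read 109 and 162 FPKM in PAF KO and 143 and 145 in Apc Min. Cyp51 and Msmo1 thus lay like Sqle and Fdft1, below both Apc Min libraries in PAF KO library 1 and above both in library 2. The library 2 differences from the Apc Min mean ran from 0.08 for Sqle and 0.17 for Msmo1 to 0.30 for Cyp51 and 0.60 for Fdft1.

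Tm7sf2, a sterol reductase that follows Cyp51, was the sterol enzyme of smallest p. It read 36.6 and 36.1 FPKM in PAF KO, against 57.1 and 62.9 in Apc Min, a PAF KO mean of 60.6% of the Apc Min mean (log2 fold change -0.71, SE 0.158; limma adjusted p = 0.290). The PAF KO values differed by less than the Apc Min values did. Tm7sf2 overlaps Vps51 on the same strand in the annotation. Lbr, the nuclear membrane protein with the same reductase activity, read 19.9 and 46.5 FPKM in PAF KO and 20.2 and 18.5 in Apc Min, so it lay higher only in library 2 (log2 fold change 0.63, SE 0.454; limma adjusted p = 0.561).

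Among the later steps, Ebp, the sterol isomerase, had the smallest p of the members that stood higher. It read 50.4 and 55.7 FPKM in PAF KO, against 36.2 and 36.5 in Apc Min, a PAF KO mean of 146% of the Apc Min mean (log2 fold change 0.53, SE 0.158; limma adjusted p = 0.333). The next enzyme, the desaturase Sc5d, read 65.0 and 71.7 FPKM in PAF KO, against 62.9 and 60.3 in Apc Min, without overlap but by a small amount (log2 fold change 0.15, SE 0.162). Ebp and the decarboxylating dehydrogenase Nsdhl are X-linked and sex differed within PAF KO. Nsdhl read 36.9 and 36.8 FPKM in PAF KO, against 42.0 and 41.6 in Apc Min, and both genes gave like values in the 2 PAF KO libraries. The part of sex in the values of these genes was not tested. Hsd17b7, the keto reductase, read 12.6 and 16.0 FPKM in PAF KO, against 17.9 and 16.2 in Apc Min. Dhcr7, a reductase of the final step, read 31.5 and 20.0 FPKM in PAF KO, against 36.0 and 35.8 in Apc Min (log2 fold change -0.50, SE 0.273; limma adjusted p = 0.483). Its deficit was mostly in library 2, at -0.82, and was -0.18 in library 1. Summed over the 19 enzyme rows from Acat2 to Dhcr7, levels were 671 and 866 FPKM in PAF KO and 807 and 798 in Apc Min. For the 3 fatty acid enzymes the sums were 54.1 and 55.3 FPKM in PAF KO and 105 and 105 in Apc Min.

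The sterol transport genes lay higher in PAF KO library 2. Tmem97, an endoplasmic reticulum protein that binds the cholesterol exporter Npc1, read 32.2 and 55.3 FPKM in PAF KO, against 25.4 and 26.6 in Apc Min, above both Apc Min libraries (log2 fold change 0.68, SE 0.313; limma adjusted p = 0.443). The Tmem97 transcript matches a pseudogene, Gm5809, at 98.9% over 529 bases. Stard4, a soluble sterol carrier, read 23.0 and 61.9 FPKM in PAF KO, against 34.5 and 32 in Apc Min. Its PAF KO values were the lowest and the highest of the 4, with differences of -0.52 and 0.88.

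**Figure D3:**
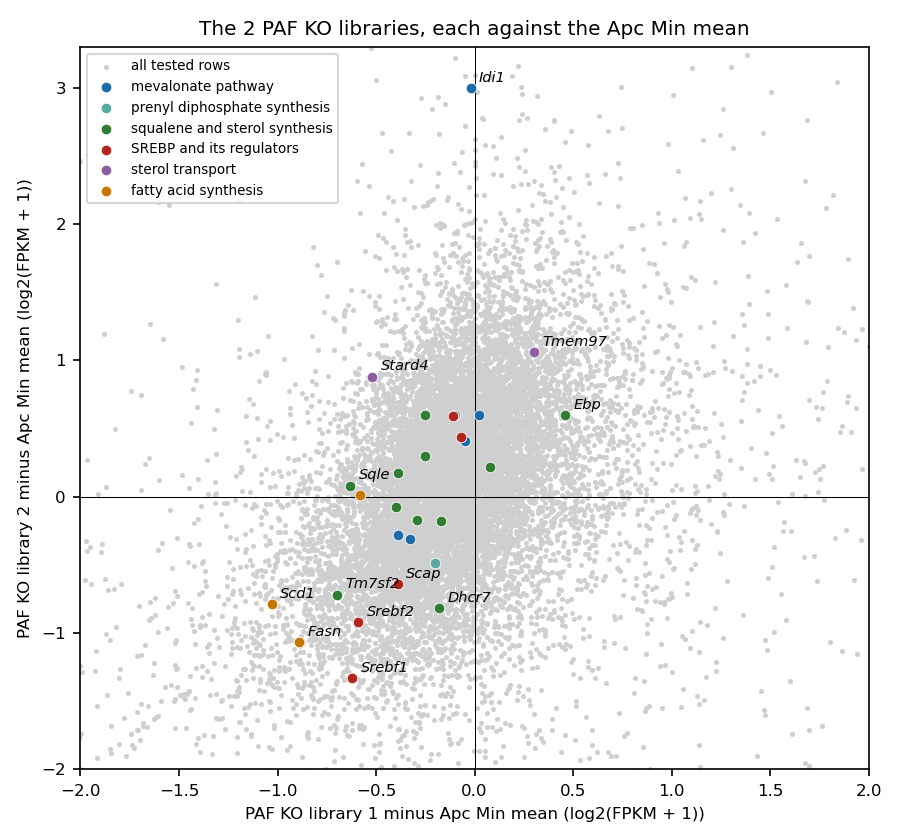
Difference from the Apc Min mean in log2(FPKM + 1), PAF KO library 1 on the horizontal and library 2 on the vertical axis, for members (coloured by role) and all tested rows (grey; 596 rows lie outside the axes). Both axes share the Apc Min libraries. Fasn, Scd1, Srebf1, Srebf2 and Tm7sf2 lie at the lower left, Ebp and Tmem97 at the upper right, and 11 members lie in the upper left quadrant.

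With a single PAF KO library against the Apc Min libraries, limma called many rows, since the lone library is assumed to vary as little as the Apc Min libraries. PAF KO library 1 alone gave 10 members lower and 1 higher, where 14.4% and 6.27% of all rows were called in those directions. The higher member was Ebp (log2 difference 0.46; limma adjusted p = 0.0349), and the lower ones included Fasn (-0.89, adjusted p = 0.0194) and Sqle (-0.63, adjusted p = 0.0279). PAF KO library 2 alone gave 9 members lower and 10 higher, where 27.1% and 34.1% of all rows were called. Among the higher ones were Fdft1 (0.60, limma adjusted p = 0.00787) and Cyp51 (0.30, adjusted p = 0.0242). These calls describe single libraries and not the genotypes.

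A further 49 genes of lists around the pathway were read in the same fit, and 47 passed the level filter. Limma called 0 of them (lowest adjusted p = 0.287), where 0.0729% of all rows were called. At an unadjusted p under 0.05, 6 were lower, against 9.76% of all rows, and 6 higher, against 3.44%. Among 8 genes of late sterol synthesis, electron supply and SREBP processing, the median log2 fold change was 0.02. Mbtps1, the protease that makes the first cut in SREBPs, read 34.0 and 34.7 FPKM in PAF KO, against 50.8 and 49.4 in Apc Min (log2 fold change -0.53, SE 0.150; limma adjusted p = 0.328). It lay lower in each PAF KO library without overlap, as Srebf1, Srebf2 and Scap did, but was the only gene of this list to do so. Of the 8 genes, 1 lay below and 0 above Apc Min in both PAF KO libraries, against 30.2% and 21.5% of all rows. Por, the reductase that passes electrons to Cyp51 and Sqle, read 156 and 52.3 FPKM in PAF KO, against 152 and 157 in Apc Min, so it was low in PAF KO library 2 alone (log2 fold change -0.77, SE 0.588; limma adjusted p = 0.572).

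Genes of prenylation and isoprenoid branches had a median of 0.34 over 8 members, 1 of which lay below and 3 above Apc Min in both PAF KO libraries, against 30.2% and 21.5% of all rows. The median was -0.10 in PAF KO library 1 and 0.71 in library 2. Pdss1 and Pdss2, the subunits of the enzyme that builds the ubiquinone tail from farnesyl diphosphate, were higher. Pdss1 read 19.1 and 29.3 FPKM in PAF KO, against 11.8 and 12.8 in Apc Min (log2 fold change 0.90, SE 0.264; limma adjusted p = 0.331). Pdss2 read 7.83 and 9.05 FPKM in PAF KO, against 4.87 and 5.41 in Apc Min. Fntb, the farnesyltransferase subunit, read 9.45 and 6.2 FPKM in PAF KO, against 11.1 and 11.6 in Apc Min.

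Other lipogenic genes lay on both sides, with a median of -0.24 over 12 tested of 14, 6 below and 3 above Apc Min in both PAF KO libraries, against the same 30.2% and 21.5%. The median was -0.35 in PAF KO library 1 and 0.03 in library 2. Fads2, a fatty acid desaturase, read 106 and 90.0 FPKM in PAF KO, against 155 and 155 in Apc Min (log2 fold change -0.66, SE 0.183; limma adjusted p = 0.324). Elovl6, which elongates palmitate, read 15.3 and 18.4 FPKM in PAF KO, against 11.2 and 9.28 in Apc Min (log2 fold change 0.67, SE 0.195). Acss2, which makes acetyl-CoA from acetate, read 16.6 and 20.3 FPKM in PAF KO, against 12.3 and 10.4 in Apc Min. Elovl6 and Acss2 thus lay opposite to Fasn and Scd1, while Fads2 lay with them.

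Genes of sterol uptake, storage and traffic numbered 11, and their median was -0.07 (-0.26 in PAF KO library 1, 0.09 in library 2). Npc1, which exports cholesterol from lysosomes, read 16.3 and 17.4 FPKM in PAF KO, against 28.3 and 27.6 in Apc Min (log2 fold change -0.70, SE 0.151; limma adjusted p = 0.287). The lysosomal lipase Lipa, which frees cholesterol from esters, lay the other way at 30.5 and 25.5 FPKM in PAF KO, against 16.5 and 15.3 in Apc Min (log2 fold change 0.77, SE 0.176; limma adjusted p = 0.294). Npc1l1, the brush border carrier of dietary cholesterol, read 40.7 and 20.5 FPKM in PAF KO, against 61.6 and 61.5 in Apc Min. It is an enterocyte gene, and like it the enterocyte markers Sis (71.8 and 56.4 FPKM in PAF KO, 180 and 171 in Apc Min), Fabp2 and Anpep were lower in both PAF KO libraries, while the other 7 markers were not. Their part in the Npc1l1 values was not tested.

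Among 8 genes of the liver X receptors (LXRs), the oxysterol sensors, and their targets, the median was -0.34, with -0.04 in PAF KO library 1 and -0.44 in library 2. In library 1, 4 of the 8 lay above both Apc Min libraries and 4 below, against 31.2% and 56.2% of all rows. PAF KO library 2 lay above both for 0 and below both for 7, against 51.3% and 41.7% of all rows. Of the 8 genes, 3 lay below and 0 above Apc Min in both PAF KO libraries, against 30.2% and 21.5% of all rows. Those 3 were also the genes of smallest p in the list. Abca1, the cholesterol efflux pump induced by LXRs, read 5.49 and 8.85 FPKM in PAF KO, against 14.9 and 14.1 in Apc Min (log2 fold change -0.96, SE 0.266; limma adjusted p = 0.324). Mylip, an LXR-induced ubiquitin ligase, read 4.12 and 5.71 FPKM in PAF KO, against 7.85 and 6.81 in Apc Min. The receptor gene Nr1h2 read 59.4 and 39.8 FPKM in PAF KO, against 73.2 and 68.5 in Apc Min. None of these lists held a called gene, and with 2 libraries a group the values stand as descriptions.

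**Figure D4:**
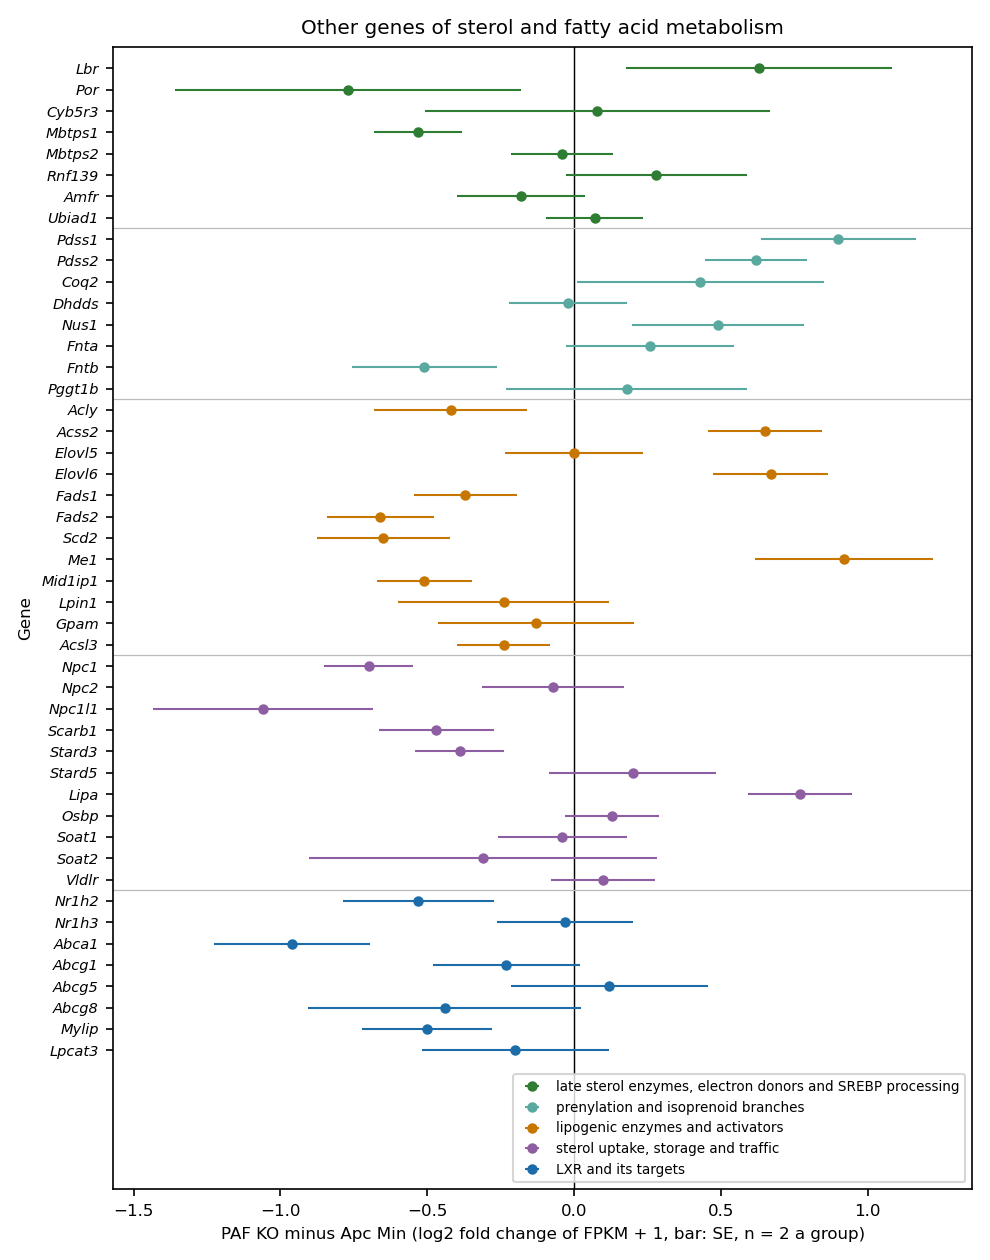
Log2 fold change of FPKM + 1 (PAF KO minus Apc Min, bars: SE, n = 2 per group) of 47 further genes of sterol and fatty acid metabolism, coloured by list. Npc1l1 and Abca1 lie furthest to the left, Pdss1 and Lipa are among those furthest to the right, and 0 genes passed the adjusted threshold.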

How the data were processed

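RNA sequencing covered 4 adenoma libraries, 2 per genotype, grouped by their titles. The authors deposited FPKM values, 1 column per library. The submitters' processing notes name TopHat2, Cuffdiff and mm9, without versions, annotation or strand setting. FPKM values are already scaled, so no count test was used.

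Of 29955 rows, 84 repeated a symbol and the row of higher mean was kept. The 13716 rows averaging 1 FPKM or more entered limma 3.58.1 (R 4.3.3, trend on mean level) as log2(FPKM + 1), with Benjamini-Hochberg adjustment over all of them. This scale understates fold changes where values are low. Separate animals are not stated for the libraries. The PAF KO libraries came from animals of different sex, while for Apc Min it is not known whether the animals were separate. The p-values thus measure only the spread between these samples. The code was tested on simulated data.

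Members and gene lists were chosen with earlier results of these data known. All members are named, and of each other list the 3 genes of smallest p. Some genes of the lists are not reported here and were left out of their counts. Promoters came from RefSeq on GRCm38.p6, and overlaps and similar transcripts (BLAST+ 2.17.0, at least 95% identity over 300 bases) from GENCODE on GRCm38. That build is not the authors' mm9, so no position was carried between them. Alternatives were pseudocounts of 0.1 and 0.01, no filter, a filter at 5 FPKM, quantile scaling, median centring, no trend, each library left out, and a replicate block.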

Additional observations from a re-analysis of the deposited data

How the results depend on the processing

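Members called stayed at 0 under every pseudocount, filter, scaling, trend and block setting and without either Apc Min library, but leaving out libraries singly gave 0 to 19, with 19 without PAF KO library 1 and 11 without PAF KO library 2. Those calls assume that the lone PAF KO library varies like the others. Other pathway genes called ranged from 0 to 32 and all rows called from 0 to 8397, against 10, with 4 when no filter was used. The median of members ranged from -0.27 to 0.05, members below the Apc Min libraries in every PAF KO library kept from 13 to 22, and members above from 3 to 14, where 22 and 14 are counts of a lone PAF KO library. With both PAF KO libraries kept, 5 were above without Apc Min library 1 and 7 after median centring. The median of PAF KO library 2 was -0.01 under quantile scaling, against 0.05. That of PAF KO library 1 was -0.16 there and -0.14 after median centring, against -0.27. Signs of single members turned only on leaving out a PAF KO library. The log2 fold change ranged from -0.58 to 0.014 for Acaca, -0.39 to 0.17 for Msmo1 and -0.63 to 0.082 for Sqle, positive without PAF KO library 1. It ranged from -0.25 to 0.30 for Cyp51, -0.25 to 0.60 for Fdft1, -0.10 to 0.60 for Ggps1, -0.016 to 3.0 for Idi1, -0.072 to 0.44 for Insig1, -0.11 to 0.59 for Insig2, -0.048 to 0.41 for Pmvk and -0.52 to 0.88 for Stard4, negative without PAF KO library 2. The cause was not tested.

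Nothing in the labels ties same-numbered libraries, and their deviations from the group means correlated at -0.115 across genes, so the numbers were not taken as pairs. With library number as a replicate block 13 rows were called, and with the numbers crossed, chosen after seeing the data, 13. Both gave 0 members. With 2 libraries a group and PAF KO libraries this far apart, a difference must be large to pass, and a p that misses the threshold does not show equal levels.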
